A study of Caenorhabditis elegans with 6 samples.

Results

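The epidermal hemidesmosome and intermediate filament genes of Caenorhabditis elegans are 10 genes, let-805, mup-4, mua-3, vab-10, vab-19, pat-12, ifa-1, ifa-2, ifa-3 and ifb-1, out of 46950 rows of a gene expression table. They were chosen by name. The table lists 9 of them under these names and ifa-2 under its other name, mua-6, with a description that identifies the ifa-2 protein. Polyadenylated RNA of whole worms was sequenced in 6 libraries. The THz group is 3 libraries of worms treated with terahertz radiation, at a frequency that the title of the series states as 0.26 THz, and the Control group is 3 libraries of control worms. The sources used here give no strain, stage, age, exposure time or power. They also do not say whether replicate libraries stem from separate cultures, so p-values reflect only the spread among these 6 libraries, part of which may be technical.

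In the worm, body wall muscle lies under a thin epidermis that carries the cuticle on its outer face. Fibrous organelles, the worm's hemidesmosomes, span the epidermis from the muscle side to the cuticle side and pass the pull of the muscle to the cuticle. On each face transmembrane receptors hold the matrix, inside the cell linker proteins tie them down, and intermediate filaments bridge the faces. Worms that lose these proteins show muscle that tears away from the body wall, or embryos that fail to elongate.

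The libraries held between 19079444 and 21977421 counted reads, as recovered from the values. Values are FPKM, read counts scaled to gene length and to the depth of the library. Of 12174 genes tested with limma on log2(FPKM + 1), 0 had a Benjamini-Hochberg adjusted p under 0.05, which is 0% of them. At an unadjusted p under 0.05 there were 714, or 5.86%. The control libraries were unlike each other. Control 2 and Control 3 lay more than 1 apart on the log2 scale at 1519 of the 12174 genes, or 12.5%, and 3 of the 10 genes described here were among them. The differences of the 10 genes and the medians of the gene lists of neighbouring structures are therefore also given without Control 2 and without Control 3. The cells of interest are present in the RNA, since all 10 of a list of epidermal marker genes passed the filter on low values, at least 1 FPKM in at least 3 libraries.

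All 10 hemidesmosome and filament genes passed that filter, and 0 were called in the test (adjusted p from 0.827 to 0.955, limma). The mean was lower after THz for 9 of them, all except ifa-2, where 49.5% of all genes tested were lower. The median log2 difference, THz minus Control, was -0.18 over the 10 genes and 0.00 over all genes tested. After quantile normalization 7 of the 10 were lower, with mup-4 and mua-3 turned to the higher side and a median of -0.15. Under that setting 43.6% of all genes were lower and the median over all genes was 0.03. In 1 gene, let-805, all 3 THz libraries lay below all 3 Control libraries, a pattern found in 7.33% of all genes tested, and in 0 of the 10 did they lie above, as in 6.44% of all genes. The other 9 genes had overlapping groups. The 10 values come from the same 6 libraries and are not independent of each other. Among the THz libraries THz 1 was the lowest for 9 of the 10 genes and THz 2 the highest for 9 of the 10. The share of all genes with this order is not given here, so the order is not shown to be particular to the 10 genes. Whole-worm RNA cannot tell a smaller share of epidermal RNA in the sample from lower levels of these genes within epidermal cells.

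**Figure D1:**
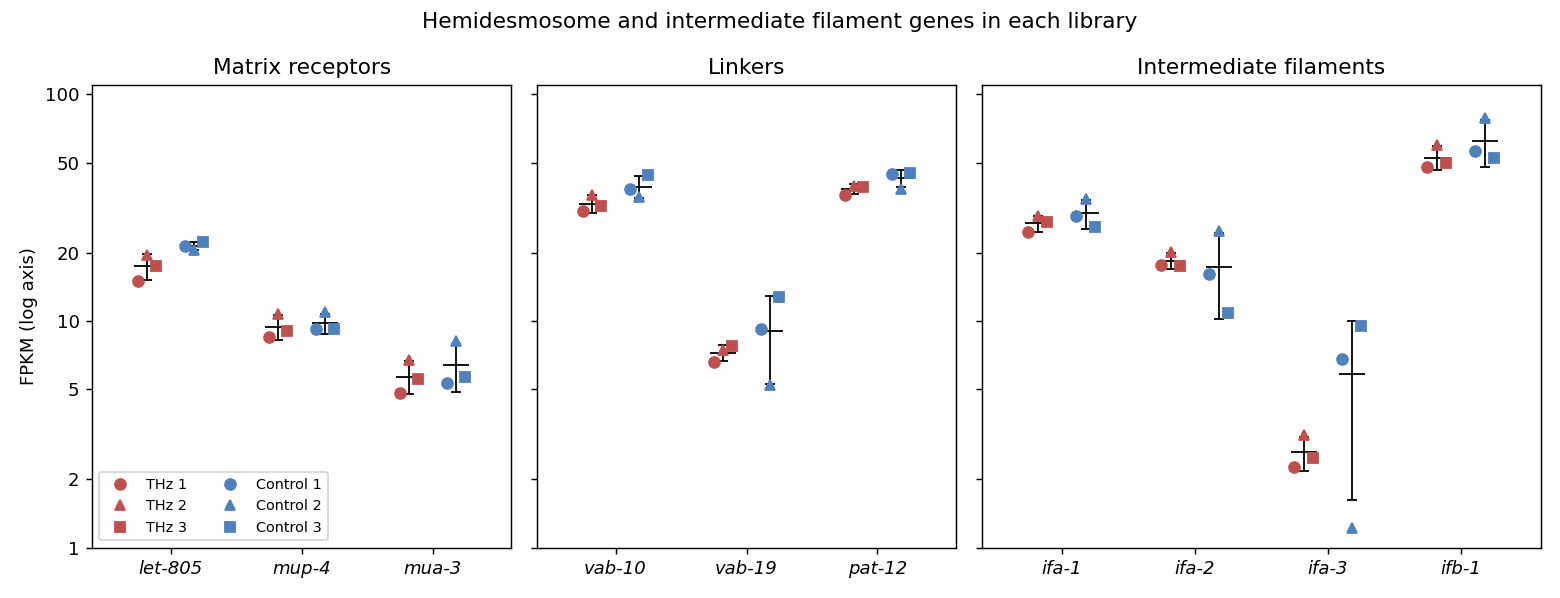
FPKM (log axis) of the 10 genes in each library, in panels for matrix receptors, linkers and intermediate filaments. Red marks are the 3 THz libraries and blue marks the 3 Control libraries, the shape gives the library number, and black bars show the mean and SD of each group. The THz marks lie below all Control marks for let-805 alone, and the Control marks of vab-19, ifa-2 and ifa-3 are spread far wider than their THz marks.

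Among the receptors, let-805 encodes myotactin, which sits on the muscle-facing side of the epidermis and holds muscle and epidermis in register. It lies on chromosome III of build WBcel235, from 2658083 to 2681112. It measured 15.1, 19.6 and 17.6 FPKM in THz 1, 2 and 3, against 21.4, 20.6 and 22.2 FPKM in Control 1, 2 and 3. The groups did not overlap, and the nearest pair was THz 2 and Control 2. Means were 17.4 ± 2.26 FPKM after THz and 21.4 ± 0.808 FPKM in Control (SD, n = 3 each), a fold of 0.813. The log2 difference was -0.29 ± 0.12 (SE), with a 95% interval from -0.58 to -0.01 before any adjustment over genes. It was -0.32 without Control 2, -0.26 without Control 3 and -0.20 without THz 1, the lowest library. It ranked 668 among 12174 genes by unadjusted p (0.0468, limma) and did not pass (adjusted p = 0.827). Across the settings tried, that unadjusted p ran from 0.00636 with library weights to 0.1845 without THz 1 (limma). Without Control 3 it was 0.0963. With all 6 libraries let-805 was the 1 gene of the 10 with an unadjusted p under 0.05. Of all genes, 4.01% reached that level lower after THz and 1.86% higher.

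MUP-4 and MUA-3 are related transmembrane receptors that sit on the cuticle-facing side and reach into the apical matrix. The gene mup-4 (chromosome III, 7479680 to 7489075) measured 8.48, 10.7 and 9.07 FPKM in the THz libraries, against 9.22, 10.9 and 9.19 FPKM in the Control libraries. Here library 2 was the highest in both groups and the groups overlapped almost fully, with a log2 difference of -0.05 and a 95% interval from -0.40 to 0.30. The gene mua-3 (chromosome III, 10160697 to 10183529) measured 4.83, 6.70 and 5.53 FPKM, against 5.34, 8.18 and 5.67 FPKM. Control 2 alone stood high, and without it the log2 difference of -0.13 became 0.03, while that of mup-4 became 0.03. Without Control 3 the differences were -0.20 for mua-3 and -0.09 for mup-4. The interval of mua-3 ran from -0.62 to 0.35, so the differences of both genes were within the spread between libraries.

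The ratio of the muscle-side receptor gene to each cuticle-side receptor gene was steady among the THz libraries. FPKM of let-805 over mup-4 was 1.78, 1.82 and 1.93 in the THz libraries, against 2.32, 1.89 and 2.42 in the Control libraries. Control 2 lay below THz 3, so the groups overlapped, and Control 1 and Control 3 lay above all THz libraries.

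Among the linkers, vab-10 encodes the worm spectraplakin, of which the plakin-type isoforms belong to hemidesmosomes and the longer spectraplakin-type isoforms bind microtubules and actin. The table gives 1 value for the gene, which has 14 annotated transcripts, so the isoforms cannot be told apart. It lies on chromosome I, from 11747428 to 11792118. It measured 30.4, 36.1 and 32.3 FPKM in the THz libraries, against 38.3, 35.2 and 43.9 FPKM in the Control libraries. Control 2 lay below THz 2, which was the whole of the overlap. The log2 difference was -0.24 ± 0.11 (SE), with an interval from -0.50 to 0.02 (adjusted p = 0.827). It was -0.31 without Control 2 and -0.15 without Control 3. After quantile normalization the vab-10 groups no longer overlapped, with a difference of -0.26.

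PAT-12 is a nematode protein of the fibrous organelles, needed for embryos to elongate. Its gene (chromosome III, 727211 to 752426) measured 35.9, 39.3 and 39.2 FPKM in the THz libraries, against 44.4, 38.3 and 45.1 FPKM in the Control libraries. Again Control 2 was the library inside the THz range. The means were 38.1 ± 1.94 FPKM after THz and 42.6 ± 3.76 FPKM in Control (SD, n = 3 each), a log2 difference of -0.15 with an interval from -0.37 to 0.07. It was -0.23 without Control 2 and -0.11 without Control 3. VAB-19, an ankyrin repeat protein of the KANK family that joins hemidesmosomes to the actin cytoskeleton, had the widest Control spread of the linkers. Its gene (chromosome II, 2443279 to 2451130) measured 6.58, 7.42 and 7.76 FPKM, against 9.25, 5.21 and 12.8 FPKM. Control 2 lay below and the other Control libraries above every THz library, and the log2 difference of -0.22 was -0.53 without Control 2 and 0.05 without Control 3.

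**Figure D2:**
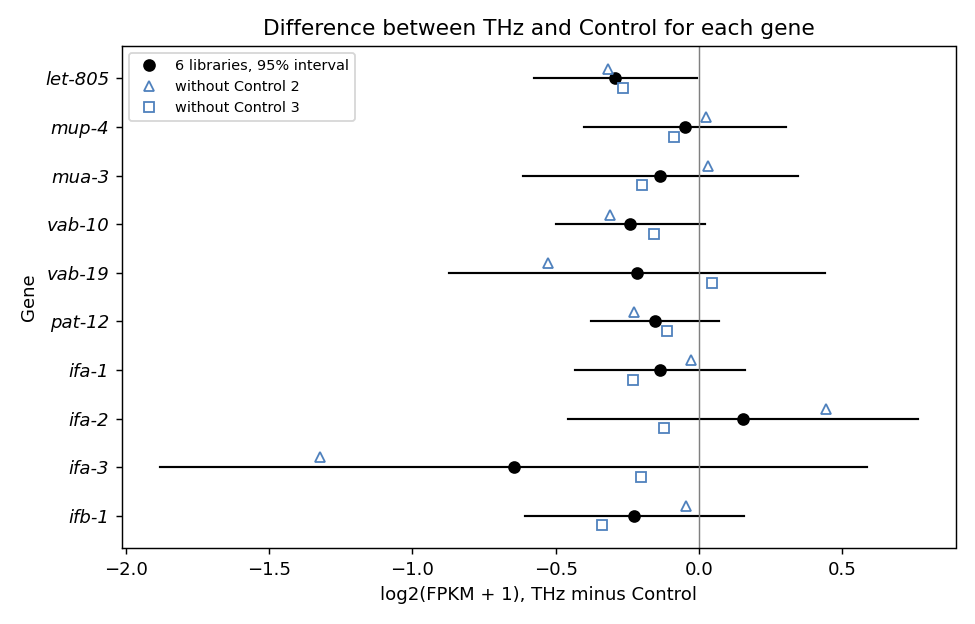
Difference in log2(FPKM + 1), THz minus Control, for each gene. Black points and lines give the estimate from 6 libraries with its unadjusted 95% interval, triangles the estimate without Control 2 and squares the estimate without Control 3. The interval of let-805 ends at -0.01, all others cross 0, and the triangles and squares lie furthest apart for ifa-3, at -1.32 and -0.20.

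Cytoplasmic intermediate filaments of the worm epidermis are built from IFB-1, the shared partner, together with a type A protein, IFA-1, IFA-2 or IFA-3. The gene ifb-1 (chromosome II, 5765618 to 5772084) measured 47.9, 59.99 and 49.9 FPKM in the THz libraries, against 56.0, 78.9 and 52.3 FPKM in the Control libraries. Control 2 was high by itself, and the difference of -0.23 was -0.05 without it and -0.34 without Control 3. The partner ifa-1, which is also used in the pharynx (chromosome X, 11271184 to 11275482), measured 24.6, 28.9 and 27.3 FPKM, against 29.1, 34.6 and 25.9 FPKM. Its groups overlapped and its difference was -0.14 with an interval from -0.43 to 0.16. It was -0.03 without Control 2 and -0.23 without Control 3.

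The remaining type A genes, ifa-2 and ifa-3, are neighbours. IFA-2, whose loss makes muscle detach in larvae, is encoded on chromosome X from 16262295 to 16265686. It was the gene with a higher THz mean, at 17.6, 20.1 and 17.5 FPKM in the THz libraries, against 16.1, 25.04 and 10.9 FPKM in the Control libraries. All THz values lay inside the Control range, and the log2 difference of 0.15 had an interval from -0.46 to 0.76. It was 0.44 without Control 2 and -0.12 without Control 3. IFA-3, which works with IFB-1 in the elongating embryo, is encoded 1570 bases further on the same strand, from 16267257 to 16270056. It measured 2.27, 3.13 and 2.49 FPKM, against 6.79, 1.22 and 9.48 FPKM. Control 2 was the lowest of all 6 libraries, Control 1 and Control 3 were the highest, and the THz libraries lay between.

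The spread of ifa-3 among the Control libraries was far outside counting error. It rested on 51 recovered reads in Control 2 (95% Poisson interval 38.0 to 67.1), against 274 in Control 1 (242.5 to 308.4) and 414 in Control 3 (375.1 to 455.9). These intervals cover counting error only. With 6 libraries the log2 difference of ifa-3 was -0.65 ± 0.53 (SE, adjusted p = 0.829). Without Control 2 it was -1.32 and passed the test over all genes (adjusted p = 0.0203, limma), where 1.88% of all genes were called lower and 0.1% higher. Control 2 itself measured less ifa-3 than any THz library, so that call holds against Control 1 and Control 3 alone. Without Control 3 the difference was -0.20. None of the other 9 genes passed in either case. With weights estimated for each library 4 of the 10 genes were called lower, let-805, vab-10, pat-12 and ifa-3, where 11.7% of all genes were called lower and 13.7% higher. The Control side of that fit rested mostly on Control 1, with a weight of 4.29, against 0.18 for Control 2 and 0.293 for Control 3.

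Among the Control libraries ifa-2 and ifa-3 went opposite ways, while in the THz group both were highest in THz 2. Their sum was 19.9, 23.2 and 19.97 FPKM in the THz libraries, against 22.9, 26.3 and 20.4 FPKM in the Control libraries. Between the highest and the lowest Control library the sum differed 1.29-fold, where ifa-2 differed 2.30-fold and ifa-3 7.78-fold. The ratio of ifa-2 to ifa-3 was 7.78, 6.42 and 7.01 in the THz libraries, against 2.37, 20.5 and 1.15 in the Control libraries. How the authors' counting treated reads that match more than 1 gene of the family is not given in the sources used here. Recovered reads of ifa-1, ifa-2 and ifa-3 were whole within 0.05 reads in every library. A split of reads between these relatives remains uncertain and was not tested.

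The share of ifa-1 in the 3 type A genes was nearly the same everywhere. It was 55.3, 55.4 and 57.8% in the THz libraries, against 55.9, 56.8 and 56.0% in the Control libraries. The share of ifa-3 was 5.09, 6.004 and 5.27%, against 13.1, 2.00 and 20.5%. The shared partner followed the total, since ifb-1 over the sum of the 3 type A genes was 1.08, 1.15 and 1.06 in the THz libraries, against 1.08, 1.30 and 1.13 in the Control libraries.

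**Figure D3:**
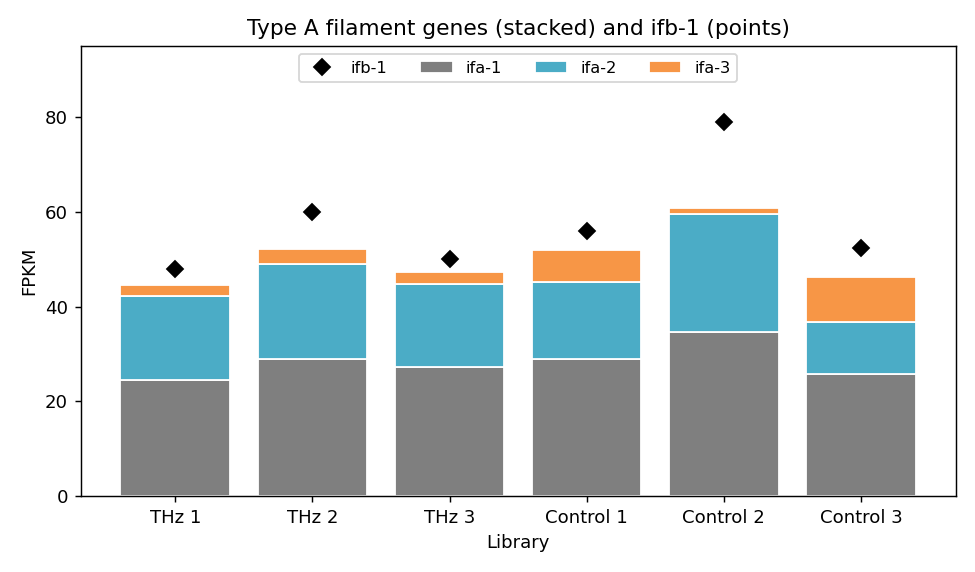
FPKM of the type A filament genes ifa-1, ifa-2 and ifa-3, stacked, with ifb-1 as points, in the THz libraries and the Control libraries. The orange part, ifa-3, is 2.00% of the stack in Control 2 and 20.5% in Control 3, while the grey part, ifa-1, keeps a share between 55.3 and 57.8% in all 6.

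Per length as deposited, ifb-1 was the most abundant of the 10 genes in both groups, at 52.6 ± 6.48 FPKM after THz and 62.4 ± 14.4 FPKM in Control (SD, n = 3 each). It was followed by pat-12, vab-10 and ifa-1 in both, and ifa-3 was the least abundant, at 2.63 ± 0.448 FPKM after THz and 5.83 ± 4.21 FPKM in Control. Ranges of neighbouring genes overlapped at 3 places in the THz order, between pat-12 and vab-10, ifa-2 and let-805, and vab-19 and mua-3. In the Control order pat-12 and vab-10 overlapped, let-805 stood above ifa-2, and from let-805 downwards each gene overlapped the next. The order depends on the gene length used. The deposited length was 7872 bases for let-805, 12318 for vab-10 and 2576 for pat-12, where the exons annotated for these genes in WBcel235 cover 14200, 24099 and 6634 bases. These are all exons of a gene joined, and for pat-12 they exceed its longest annotated transcript, of 5135 bases. With that joined length, pat-12 would have 14.8 FPKM after THz and 16.5 FPKM in Control, below ifa-1 at 23.3 and 25.8 FPKM. In the same order vab-10 would have 16.8 and 19.99 FPKM, also below ifa-1, and let-805 9.64 and 11.9 FPKM. The gene ifb-1 would stay the highest, at 50.1 and 59.4 FPKM, and ifa-3 the lowest, at 2.54 and 5.62 FPKM. FPKM ratios of 1 gene between libraries do not depend on its length, but differences in log2(FPKM + 1) do, through the added 1.

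Control 2 and Control 3 divided the 10 genes. Control 2 was the highest of the 6 libraries for mup-4, mua-3, ifa-1, ifa-2 and ifb-1, and Control 3 was the highest for let-805, vab-10, vab-19, pat-12 and ifa-3. Control 2 over Control 3 was 2.30 for ifa-2, 1.51 for ifb-1 and 1.44 for mua-3, and it was 0.408 for vab-19 and 0.129 for ifa-3. The range within the group was wider in Control than in THz for 8 of the 10 genes, and for 79.1% of all genes tested. Without Control 2 the mean was lower after THz for 7 of the 10 genes, where 48.2% of all genes were lower, and 5 of the 10 had THz libraries below both remaining Control libraries, where 19.1% of all genes did. Without Control 3 the mean was lower for 9 of the 10, where 47.4% of all genes were lower. In all, 6 of the 10 genes kept the direction of their difference both without Control 2 and without Control 3, namely let-805, vab-10, pat-12, ifa-1, ifa-3 and ifb-1. Between these estimates ifb-1 and ifa-1 moved towards 0 without Control 2, while vab-10, vab-19, pat-12 and ifa-3 moved away from it, as did let-805 and ifa-2.

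Gene lists of neighbouring structures were scored as the mean of log2(FPKM + 1) after subtracting each gene's own mean over the 6 libraries. The 10 genes scored -0.22, 0.04 and -0.11 in the THz libraries, against 0.11, 0.03 and 0.15 in the Control libraries. THz 2 lay above Control 2, so the scores overlapped. Moulting genes, which drive the building and shedding of the cuticle, scored -0.26, 0.02 and -0.10, against 0.26, -0.55 and 0.63. Of the 15 on that list 12 passed the filter and 9 were lower by mean, where 49.5% of all genes were lower. In 1 of them, the kinase gene nekl-2, all THz libraries lay below all Control libraries, as in 7.33% of all genes. It measured 5.47, 5.37 and 5.35 FPKM in the THz libraries, against 6.16, 8.35 and 6.91 FPKM in the Control libraries. The moulting gene acn-1 measured 4.42, 6.12 and 4.52 FPKM, against 9.11, 3.45 and 14.4 FPKM. Epidermal markers scored -0.22, 0.06 and -0.05, against 0.35, -0.55 and 0.42. In both lists Control 2 was the lowest and Control 3 the highest library, the order seen for vab-19 and ifa-3 and the reverse of that for ifa-2. The median log2 difference of the moulting list was -0.19, and it was -0.41 without Control 2 and 0.03 without Control 3. Of the epidermal markers 6 of 10 were lower by mean, where 49.5% of all genes were. Their median was -0.17, and it was -0.24 without Control 2 and 0.09 without Control 3. Without Control 2 limma called 2 moulting genes, dpy-7 and mlt-8, and 3 epidermal markers, dpy-7, wrt-2 and wrt-10, all named after their values were seen. The gene dpy-7 is on both lists. In that fit 1.88% of all genes were called lower and 0.1% higher. Control 2 was the lowest of the 6 libraries for each of these named genes. The summed level of the epidermal markers was 762.6 to 933.9 FPKM in THz and 670.5 to 1318 FPKM in Control, with Control 2 the highest, and most of it was the adult collagen gene col-19, at 1191 FPKM in Control 2. Without col-19 the sum was 150.8 to 187.1 FPKM in THz and 126.6 to 254.8 FPKM in Control, with Control 2 the lowest and Control 3 the highest. With the moulting score as a covariate all 10 genes were lower and 0 were called. In that fit 50.1% of all genes were lower and 72 of 12174 were called. The differences of ifa-3, vab-19 and ifa-2 were then -0.22, 0.00 and -0.04, those of ifb-1, mua-3 and ifa-1 were -0.32, -0.21 and -0.20, and that of let-805 was -0.26. The part that moulting or epidermal content has in these values was not tested further.

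**Figure D4:**
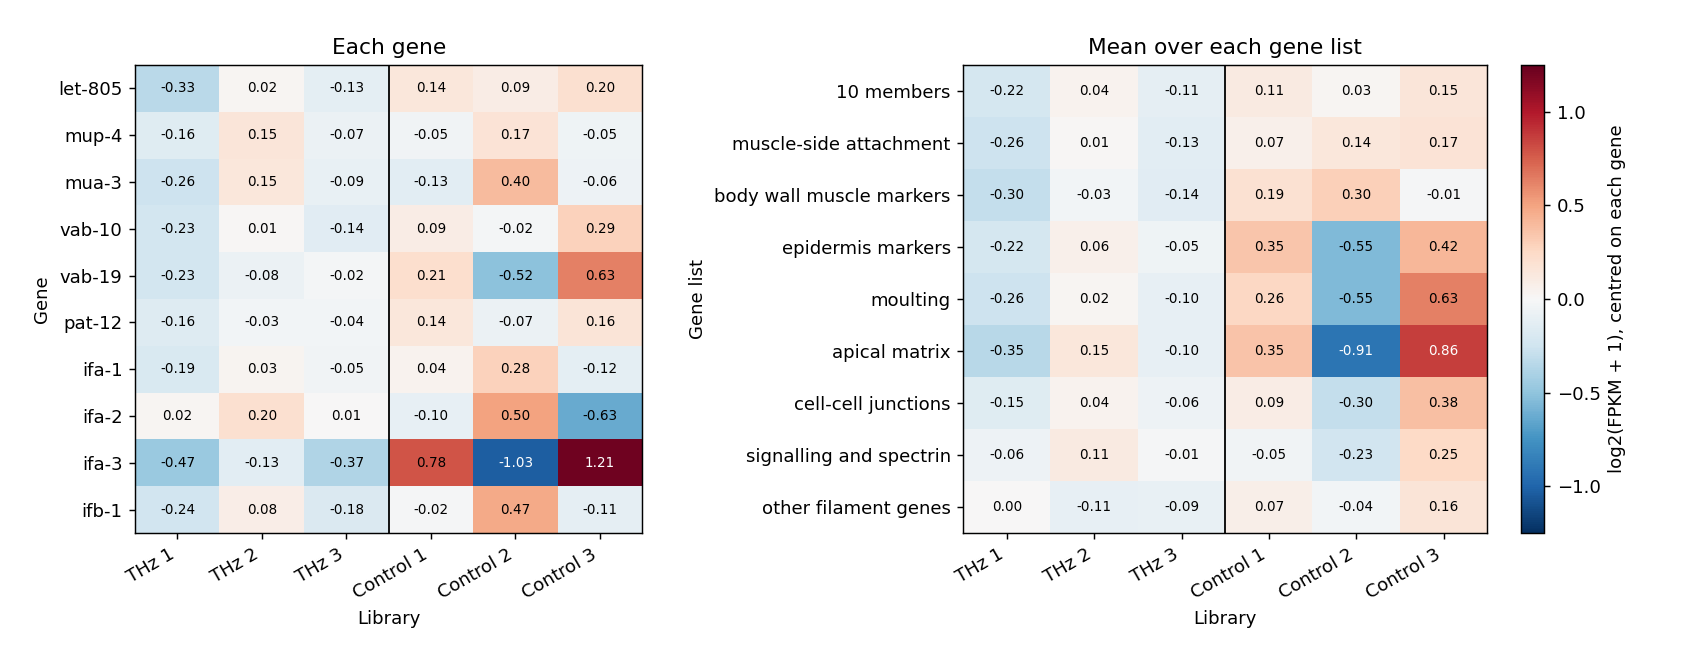
Values of log2(FPKM + 1), centred on each gene, for the 10 genes (left) and as the mean over each gene list (right), with the 3 THz libraries left of the 3 Control libraries. Red is above and blue below the gene's own mean. In Control 2 the moulting, epidermal and apical matrix lists and vab-19 and ifa-3 are blue, while mua-3, ifa-2 and ifb-1 are red.

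On the muscle side of the same attachment, integrins and their partners link the contractile apparatus to the basement membrane that faces LET-805. Of 11 such genes, all measured, 10 had a lower mean after THz and 4 had all THz libraries below all Control libraries, where 49.5% of all genes were lower and 7.33% had all THz libraries below. The median log2 difference was -0.27, and it was -0.25 without Control 2 and -0.24 without Control 3. None passed over all genes. The LIM domain gene unc-95 measured 12.8, 13.3 and 12.7 FPKM in the THz libraries, against 20.8, 18.7 and 17.7 FPKM in the Control libraries, a difference of -0.52 (adjusted p = 0.612, limma). The perlecan gene unc-52, whose product is a matrix protein between muscle and epidermis, measured 23.3, 29.2 and 26.2 FPKM, against 34.6, 35.3 and 33.0 FPKM. The LIM protein gene unc-97 measured 21.3, 25.01 and 25.6 FPKM, against 28.1, 28.5 and 33.2 FPKM. Of the body wall muscle markers 8 of 8 were lower by mean and 3 of them had all THz libraries below, against the same shares of 49.5% and 7.33%, and 0 were called. Their summed level was 1362 to 1606 FPKM in THz and 1536 to 2352 FPKM in Control. Of the markers of other tissues, 5 of 7 intestinal, 4 of 6 neuronal, 4 of 4 pharyngeal and 0 of 5 germ line genes were lower by mean. In 2 neuronal markers all THz libraries lay below all Control libraries, where 7.33% of all genes did. In 2 germ line markers all lay above, where 6.44% of all genes did. In these lists 0 genes were called. The part of muscle or other tissue RNA in the let-805 value was not tested.

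On the cuticle side, the matrix on the outer face of the epidermis involves zona pellucida and lipocalin proteins. All 8 genes on that list passed the filter. Of them 6 were lower by mean and 1 had all THz libraries below, against 49.5% and 7.33% of all genes. The median was -0.17. It was -0.69 without Control 2 and 0.28 without Control 3, when 0 were called. Without Control 2 limma called lpr-3 and noah-2 lower, where 1.88% of all genes were called lower. Control 2 was the lowest library for both genes. The gene noah-2 is named after its values were seen. The lipocalin gene lpr-1 measured 0.327, 1.06 and 0.772 FPKM in the THz libraries, against 2.28, 1.102 and 2.23 FPKM in the Control libraries. Its values are near the filter, and THz 2 and Control 2 differed little. The other lipocalin gene, lpr-3, measured 8.77, 14.6 and 10.96 FPKM, against 21.7, 4.87 and 34.1 FPKM, with Control 2 lowest and Control 3 highest as for ifa-3. The gene let-653, a zona pellucida protein, measured 5.40, 7.71 and 5.80 FPKM, against 6.84, 5.23 and 10.7 FPKM.

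Other intermediate filament genes, most of them of the intestine, with the lamin gene lmn-1 and the filament organiser ifo-1, made a list of 9, of which 7 were lower by mean and 1 had all THz libraries below, where 49.5% and 7.33% of all genes did. The median was -0.12, and it was -0.13 without Control 2 and -0.10 without Control 3. The non-overlapping gene was ifd-2, at 7.30, 7.67 and 7.59 FPKM in the THz libraries, against 8.91, 10.2 and 10.8 FPKM in the Control libraries. The organiser ifo-1 measured 8.50, 6.82 and 7.67 FPKM, against 9.33, 8.34 and 11.6 FPKM. The nuclear lamin gene lmn-1 measured 163.8, 167.0 and 163.4 FPKM, against 148.7, 143.9 and 165.7 FPKM. None of the 9 passed over all genes.

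Hemidesmosomes also signal, as tension on them recruits the PIX-1, GIT-1 and PAK-1 proteins, and spectrins and small GTPases shape the same cells. Of 10 genes of this kind 4 were lower and 6 higher by mean, where 49.5% of all genes were lower. No gene on the list was without overlap and none passed the test. The median was 0.02, and it was -0.03 without Control 2 and 0.16 without Control 3. Among them ced-10, a Rac GTPase, measured 47.0, 47.9 and 43.7 FPKM in the THz libraries, against 42.7, 39.0 and 45.7 FPKM in the Control libraries. The scaffold gene git-1 measured 15.2, 15.8 and 14.9 FPKM, against 12.3, 11.5 and 16.7 FPKM. In both genes Control 1 and Control 2 lay below the THz range and Control 3 inside or above it.

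Cell-cell junctions of epithelia, the list of 9 that includes the cadherin and catenin genes, had 6 lower and 3 higher by mean. Of all genes, 49.5% were lower. No gene on the list was without overlap and none passed the test. The median was -0.14, and it was -0.29 without Control 2 and 0.09 without Control 3. The claudin-like gene vab-9 measured 6.14, 6.69 and 7.60 FPKM in the THz libraries, against 11.1, 6.49 and 9.88 FPKM in the Control libraries. The junction gene ajm-1 measured 24.6, 33.4 and 27.5 FPKM, against 36.7, 25.5 and 52.5 FPKM. The adhesion gene sax-7 measured 73.7, 82.2 and 75.0 FPKM, against 63.2, 70.9 and 77.3 FPKM.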

How the data were processed

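The authors deposited 1 FPKM value per gene and library, with each gene's position, length and name. Tools listed in the submitters' processing notes, without roles, are DESeq 1.10.1, HTSeq 0.5.4 and STAR, and the build is WBcel235. Per the labels' protocols, RNA was extracted with TRIzol and prepared with a TruSeq v2 kit. Names stored as dates or left blank were replaced through the gene ID. FPKM times length is a multiple of 1 step per library, which gave the counted reads. Within 0.05 reads, from 88.5 to 88.9% of values were whole, so recovered reads served only for voom and for counting intervals. For let-805 and mua-3 not every value was whole.

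The test was limma 3.58.1 (R 4.3.3) with a trend on log2(FPKM + 1), group as the only term, keeping genes that reached 1 FPKM in 3 or more libraries, two-sided, adjusted over all 12174 genes. Fold changes on this scale understate changes of low genes. An exact permutation test of 3 against 3 cannot go below p = 0.1. The script was tested on simulated data. All 10 genes are named. The rule also named the 3 genes with the smallest p in each other list. The text gives these for the lists of structures, except 1 moulting gene and 1 gene that is not reported here, and gives the marker lists as counts. Members and lists were chosen with earlier results of these data known. Annotation and exon lengths come from Ensembl WBcel235. Alternatives tried were adding 0.1 or 5 before the log, keeping every gene or those reaching 5 FPKM, quantile or upper quartile scaling, no trend, library weights, a replicate block, a moulting covariate, voom on genes with at least 10 recovered reads in 3 libraries, and leaving out each library. Figures used matplotlib 3.10.9.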

Additional observations from a re-analysis of the deposited data

How the results depend on the processing

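Across 17 alternative settings the 10 genes gave 169 values, of which 155 kept their direction and stayed uncalled, 5 were called and 9 changed sign. The median of the 10 genes kept its sign under every setting, from -0.21 to -0.15, and from -0.24 to -0.13 when each library was left out. With library weights 3092 genes were called and 4 of the 10, namely let-805, vab-10, pat-12 and ifa-3 (adjusted p = 0.0339, 0.0302, 0.0353 and 0.0122, limma). The weights were 0.1798 for Control 2 and 0.293 for Control 3, against 4.29 for Control 1 and from 0.935 to 3.59 for the THz libraries. Control 1 thus carried most of the Control weight. With the moulting covariate 72 genes were called and 0 of the 10. Quantile normalization gave 2 of the 10 genes with groups that did not overlap and turned mup-4 to 0.0638 and mua-3 to 0.00926. The share of all genes without overlap is not given here for that setting, and 43.6% of all genes were lower in it. Library weights turned mua-3 to 0.0192, and the moulting covariate turned ifa-2 to -0.0369. Leaving out each library gave from 0 to 237 calls, from 0 to 1 of the 10 genes called and from 1 to 5 of them without overlap, the highest values all without Control 2. Without Control 2, 1.88% of all genes were called lower and 0.1% higher, and 19.1% had all THz libraries below both remaining Control libraries. With each library left out in turn, the differences ran from -0.14 to 0.0257 for mup-4, from -0.24 to 0.0311 for mua-3, from -0.53 to 0.0462 for vab-19, from -0.12 to 0.44 for ifa-2 and from -1.32 to -0.20 for ifa-3. The cause of these changes was not tested. With 9 of the 10 genes left by a filter of 5 FPKM, ifa-3 had no value there.

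Over all genes the replicate number showed no pairing of the libraries, though 3 libraries per group cannot exclude a weak one. Correlations of the deviations of same-numbered THz and Control libraries were -0.012, -0.136 and 0.028, and no THz library correlated best with the Control library of its own number. With the replicate block 0 genes were called and the median of the 10 genes was -0.18. The block raised the SE of let-805, mup-4, vab-10 and pat-12 and lowered that of the other members. For ifb-1 the SE went from 0.164 to 0.0988 (adjusted p = 0.8805 with the block, limma).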

Other observations

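The 5 genes whose profile over the 6 libraries lay nearest to the mean profile of the 10 genes, by Euclidean distance on centred log2(FPKM + 1) among 8404 genes with a mean of at least 5 FPKM, were odc-1, pdi-6, tbc-11, flp-11 and Y56A3A.7. Their distances ran from 0.0276 for odc-1 to 0.0985 for Y56A3A.7, where the median gene had 0.488. The mean profile averages genes that went opposite ways, so nearness to it is not likeness to each of the 10 genes. In Control 2 and Control 3 it was 0.03 and 0.15, where ifa-3 was -1.03 and 1.21 and ifa-2 was 0.50 and -0.63. The ornithine decarboxylase gene odc-1 measured 12.3, 14.8 and 13.5 FPKM in the THz libraries, against 15.8, 14.9 and 16.5 FPKM in the Control libraries. The protein disulphide isomerase gene pdi-6 measured 125.0, 153.2 and 134.8 FPKM, against 157.1, 146.1 and 164.9 FPKM.

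The locus of ifb-1 overlaps dmd-5 on the other strand, and the kit named in the labels keeps no strand. The gene dmd-5 measured 3.80, 4.43 and 3.82 FPKM in the THz libraries, against 6.03, 1.63 and 7.75 FPKM in the Control libraries, so it was lowest in Control 2, where ifb-1 was highest. Y47H9B.2, which overlaps vab-10, lay between 0.288 and 0.519 FPKM in all 6 libraries, and idpp-1, which overlaps pat-12, was not analysed here.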
